A study of Mus musculus with 96 samples.

Results

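The proteasome genes described here are the 47 genes of the count table whose symbols start with Psm, a letter from a to g and a number, without Psmb8, Psmb9, Psmb10 and pseudogene names. The table holds 19836 genes in all. Of the 47, 14 encode the 20S core (Psma1 to Psma7 and Psmb1 to Psmb7) and 17 encode the 19S regulatory particle, with 9 in its base and 8 in its lid. The other 16 by name are 3 chaperones of 19S assembly, 4 chaperones of 20S assembly, 4 PA28 activator genes, the activator PA200 (Psme4), the inhibitor PI31 (Psmf1), the tissue-restricted core genes Psma8 and Psmb11, and Psmc3ip. The name rule is wider than the constitutive proteasome: Psmc3ip encodes a cofactor of meiotic recombination and is no proteasome gene, Psma8 is known from testis and Psmb11 from thymic epithelium, and Psme1 and Psme2 respond to interferon. The 31 core and regulatory subunits are therefore described apart from the rest.

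RNA was measured in 96 single cells of C57BL/6 mouse embryos, with 1 cell per well and full-length SMART-Seq cDNA. Pre-haematopoietic stem cells came from the aorta-gonad-mesonephros region (AGM, 48 cells) and the yolk sac (16 cells) at E11.5, both gated Ter119-CD11b-CD144+c-kit+EPCR+. Fetal liver haematopoietic stem cells were gated Ter119-Sca-1+c-kit+EPCR+ at E12.5 (16 cells) and Ter119-Sca-1+c-kit+CD48-CD150+ at E14.5 (16 cells). Tissue, age and gate changed together between the E11.5 groups and the livers, and age and gate between the livers, so their parts cannot be told apart. Neither animals nor litters are named in the labels. Each group therefore counts as 1 sample, no test was made, and no difference below has a replicate check.

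The proteasome degrades proteins that carry ubiquitin chains. The 20S core is a barrel of stacked rings in which alpha subunits form the outer rings and the gate, and beta subunits form the inner rings with the proteolytic sites. The 19S particle sits on the barrel, where its base unfolds the substrate with ATPases and its lid removes the ubiquitin. In haematopoietic stem cells, protein synthesis is known to be held low and protein quality to be closely controlled.

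Levels are given as CPM (a gene's summed reads in a group, scaled to the group's total read count), and ratios are log2 ratios after 1 CPM was added. A gene was called when its ratio reached 2-fold, a rule of size and not a test. Intervals are exact 95% intervals for counting error only, since reads copied by PCR are not independent molecules. Of the 47 genes, 46 had at least 30 reads over all cells, and 41 averaged at least 100 CPM over the 4 groups, all 31 subunits among them. Psmb11 had 9 reads, all in AGM cell 1, and 0 reads in the other groups, where 3 reads would be 0.134 CPM in yolk sac, 0.157 CPM in E12.5 liver and 0.146 CPM in E14.5 liver.

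Groups held between 19053123 and 60280645 reads and single cells between 250235 and 1926882. The median number of genes with a read was 5522.5 in AGM and 5349.5 in yolk sac, then 4036 at E12.5 and 4839 at E14.5, and E12.5 cell 8 had 1011 genes. All 10 listed haematopoietic genes had reads in every group, and their summed level ran from 2525 to 3125 CPM. The 12 endothelial genes summed to between 1231 and 2095 CPM, with Kdr at 0 in E12.5 liver and Cldn5 and Sox17 at 0 in E14.5 liver. The 11 erythroid genes summed to 64.3 CPM in AGM and 52.7 in yolk sac, then 648 at E12.5 and 29107 at E14.5, where single cells ran from 13.9 to 231068 CPM. Globin took 14.9%, 12.9%, 4.42% and 23.1% of the reads of E14.5 wells 3, 8, 13 and 16, although Ter119 was gated against, and results are also given without those wells. The 8 macrophage genes summed to between 371 and 989 CPM in the groups, and E12.5 cell 8 alone reached 17068 CPM. That cell held more than 50% of the group's reads for 5 of the 8, among them all reads of C1qa and Mrc1 and 99.2% of those of Csf1r, while its 10 haematopoietic genes summed to 55.9 CPM and its 8 sort markers to 0. The sort markers also summed to 0 in 2 of the 16 yolk sac cells. Without E12.5 cell 8 the E12.5 macrophage sum was 775 CPM. In E12.5 cell 8 the 11 erythroid genes summed to 5651 CPM, the highest of the E12.5 cells, and globin took 1.34% of its reads. Results that rest on the cell are given with and without it, and the part of macrophage or erythroid RNA in them was not tested. The 7 mesenchymal genes to between 32.3 and 65.3 CPM in the groups, and 5 hepatocyte genes reached 72.2 CPM in yolk sac and 0 CPM in E14.5 liver.

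The 31 subunits together took 1.76% of reads in AGM and 1.91% in yolk sac, then 1.54% at E12.5 and 1.55% at E14.5. None of the 31 reached 2-fold in yolk sac against AGM or in E12.5 liver against AGM, and 1, the lid gene Psmd11, did so between the livers. Among all 46 genes with enough reads, 3 were called in yolk sac against AGM (Psmf1 and Psma8 higher, Psme4 lower), where 29.6% of 15239 genes were called in either direction (8.61% higher and 21% lower). In E12.5 liver against AGM 3 were called (Psmf1 higher, Psmc3ip and Psma8 lower), where 41.7% of all genes were called (15.6% higher and 26% lower). In E14.5 against E12.5 liver 4 were called (Psmc3ip, Psma8 and Psmd11 higher, Psme4 lower), or 3 without the 4 wells with globin reads, where Psma8 was at 0.96. Between the livers 36.9% of all genes were called (18.7% higher and 18.2% lower). Among the 2207 genes that averaged at least 100 CPM, as the 31 subunits do, the shares called were 4.89%, 10.1% and 7.97%. Read against that background, the small numbers of calls say little about the subunits in particular. The first and second comparison share the AGM cells, and the second and the third share the E12.5 cells.

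**Figure D1:**
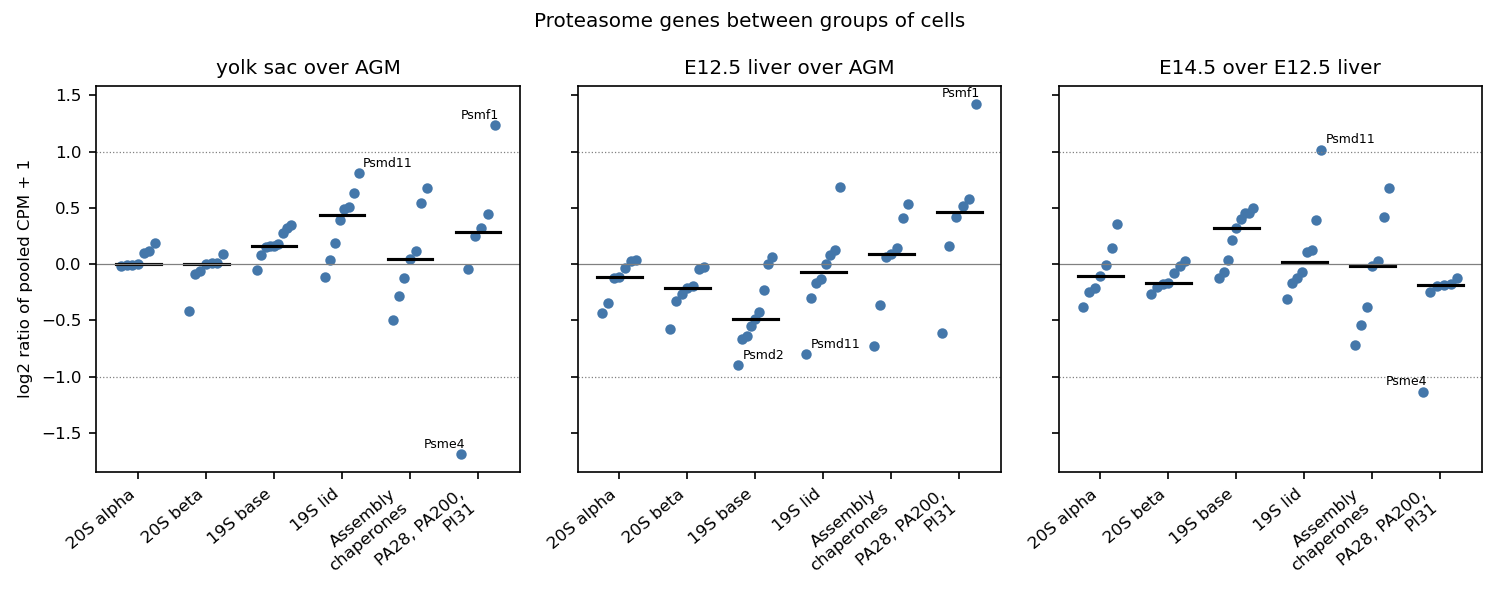
Log2 ratio of pooled CPM + 1 for each proteasome gene, by role, in the 3 comparisons. Each point is a gene, each bar the median over the genes of a role, and the dotted lines mark 2-fold. Psma8, Psmb11 and Psmc3ip are not drawn. The core genes lie between -0.57 and 0.36 in all 3 panels, and Psmf1, Psme4 and Psmd11 are the points past 2-fold.

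Core genes differed little between AGM and yolk sac. The median ratio over the 14 was 0.0038 on the log2 scale, from -0.42 (Psmb7) to 0.18 (Psma3), with 8 genes above 0 and 6 below. In E12.5 liver against AGM the median was -0.16, from -0.57 (Psmb7) to 0.04 (Psma5), with 12 of 14 below 0. In E14.5 against E12.5 liver the median was -0.14, from -0.38 (Psma3) to 0.36 (Psma4), with 11 of 14 below 0. The median over all genes was -0.20, -0.20 and 0 in the same 3 comparisons. Over the 2207 genes that averaged at least 100 CPM, as all core genes do, it was 0.057, -0.018 and -0.047. No core gene reached 1.5-fold in any comparison, where 436, 603 and 605 of those 2207 genes did. Of all 15239 genes with enough reads, 7917, 9431 and 7972 did. The small core medians depended on which cells were used. Against the AGM cells numbered 1 to 16 alone they were 0.17 in yolk sac and 0.0035 in E12.5 liver. E12.5 cell 8 had the fewest genes and the highest macrophage and erythroid sums of its group. Without it the core median of E12.5 liver was -0.26 against all AGM cells. Without the 4 E14.5 wells with globin reads the median between the livers was -0.052.

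The 3 catalytic core genes are Psmb5 (chymotrypsin-like site), Psmb6 (caspase-like site) and Psmb7 (trypsin-like site). Psmb5 in single cells ran from 210.1 CPM through a median of 642 to 1400 CPM in AGM and from 191.4 through 731 to 1128 CPM in yolk sac. In the livers it ran from 2.86 through 553 to 3597 CPM at E12.5 and from 96.3 through 472 to 936 CPM at E14.5. All 4 ranges overlapped, and the pooled levels were 695.5, 701, 608 and 504.5 CPM. The highest E12.5 value came from cell 8, the cell with the highest macrophage and erythroid sums of its group. It held 7.77% of that group's Psmb5 reads, and without it the E12.5 level was 568.5 CPM.

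Psmb6 had the highest level per kilobase of principal transcript of the core genes in each group. Its cells ran from 447 through 1181 to 2877 CPM in AGM, from 421 through 1283 to 2163 in yolk sac, from 250 through 1067 to 3265 at E12.5 and from 353 through 954 to 1515 at E14.5. All groups overlapped. The pooled levels of 1281, 1362, 1065 and 947 CPM put E12.5 liver at 0.832-fold of AGM (interval 0.819 to 0.845) and E14.5 at 0.889-fold of E12.5 (0.872 to 0.907).

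Psmb7 had the lowest such level in each group and the largest ratio downward of the core genes in both comparisons against AGM. AGM cells ran from 48.2 through 257 to 477 CPM, yolk sac cells from 61.5 through 146.4 to 657, E12.5 cells from 0 through 142.1 to 486 and E14.5 cells from 17.05 through 177.9 to 279 CPM. The medians of the other 3 groups lay below the AGM median, and the ranges overlapped. Pooled levels were 246, 184.4, 165.1 and 167.9 CPM, so AGM stood 1.34-fold above yolk sac and 1.49-fold above E12.5 liver. Psmb7 shares exon sequence with Nek6 on the opposite strand, and the sources used here do not state whether counting used the strand. The same limit holds for Psma4, Psma5, Psmc3, Psmd1, Psmd3, Psmd9 and Psme1, whose exons also overlap a gene on the opposite strand. Exons of Psmb5, Psmd1, Psmg3 and Psme2b overlap another gene on their own strand, so their reads are uncertain in any case.

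Among the 7 alpha genes, which build the gated outer rings, summed levels were 5673 CPM in AGM and 5911 in yolk sac, then 5153 at E12.5 and 4864 at E14.5. Psma3 was the core gene with the largest ratio upward in yolk sac (842 against 741 CPM) and downward between the livers (578 against 754 CPM). Psma4 went the other way between the livers, with 570 CPM at E14.5 against 445 CPM at E12.5. The 7 beta genes summed to 5102, 5068, 4476.5 and 4050 CPM in the same order. The E14.5 sums of both rings include the wells with globin reads.

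The order of core genes per kilobase of the principal transcript was much the same in all groups. Psmb6 (1605 CPM per kb in AGM) and Psma7 (1369) came first and Psmb7 (212.3) last, and Spearman's rank correlation with AGM over the 14 genes was 0.991 for yolk sac, 0.969 for E12.5 and 0.996 for E14.5. The first place depends on the length used: per kilobase of all annotated exons it went to Psmb2 in AGM and both livers and to Psmb5 in yolk sac, and Psmb7 was still last. In the regulatory particle Psmc4 came first in each group, with 481 CPM per kb in AGM. The last place was held by Psmd11 in AGM and E12.5 liver and by Psmc6 in yolk sac and E14.5 liver. Per kilobase of all exons, Psmc5 came first except in E12.5 liver, where it was Psmc4, and Psmd11 came last except in E14.5 liver, where it was Psmd1.

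Regulatory genes stood slightly higher in yolk sac than in AGM. The median over the 17 was 0.19 on the log2 scale, with 15 above 0, from -0.11 (Psmd3) to 0.81 (Psmd11). In E12.5 liver against AGM the median was -0.23, with 13 of 17 below 0, from -0.89 (Psmd2) to 0.68 (Psmd13). In E14.5 against E12.5 liver it was 0.12, with 11 of 17 above 0, from -0.31 (Psmd13) to 1.02 (Psmd11). The median over the 2207 genes that averaged at least 100 CPM was 0.057, -0.018 and -0.047. Past 1.5-fold were 2, 5 and 1 of the 17 regulatory genes and 436, 603 and 605 of those 2207 genes. Of all 15239 genes with enough reads, 7917, 9431 and 7972 were. No result is read from the counts of so short a list. Against the AGM cells numbered 1 to 16 the first 2 regulatory medians were 0.33 and -0.14. Among cells with at least 4000 genes the last regulatory median was 0.028.

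The base and the lid are given apart. The 9 base genes, whose 6 ATPases unfold substrates, had medians of 0.16, -0.48 and 0.32 in the 3 comparisons, and their summed level was 4396, 4966, 3372 and 4021 CPM in AGM, yolk sac, E12.5 and E14.5 liver. The 8 lid genes had medians of 0.44, -0.07 and 0.02 and summed to 2479, 3136, 2410 and 2545 CPM. In E12.5 liver the cells' base levels ran from 1750 through 3348 to 8080 CPM, against 2217 through 4378 to 6326 CPM in AGM, so the ranges overlapped. The median number of genes per cell was also lowest in E12.5 liver (4036), and its part in the base values was not tested.

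Psmd2, a large base subunit at which ubiquitin shuttle factors dock, had the largest ratio downward of any subunit in E12.5 liver against AGM. AGM cells ran from 7.22 through 564 to 1194 CPM, yolk sac cells from 0 through 561 to 1266, E12.5 cells from 0 through 25.8 to 849 and E14.5 cells from 0 through 342 to 1240 CPM. The E12.5 cells reached less far up and 7 of 16 had no read, whereas all 48 AGM cells had one. Pooled levels were 555, 627, 298 and 420 CPM, a ratio of -0.89 against AGM (0.537-fold, 0.522 to 0.552). It passed 2-fold when E12.5 cell 1, 2, 4, 13 or 14 was left out, as low as -1.14 without cell 14. Among cells with at least 4000 genes, 45 in AGM and 8 in E12.5 liver, the ratio was -0.38.

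Other base genes of E12.5 liver against AGM past 1.5-fold were Psmc5, an ATPase, and Psmd4, a ubiquitin receptor. Psmc5 measured 606 CPM in AGM and 678 in yolk sac, then 382 at E12.5 and 524 at E14.5. Psmd4 measured 453, 505, 290.5 and 397 CPM in the same order. Psmc4, also an ATPase, measured 692, 770, 691.5 and 710 CPM and so differed by 1.11-fold at most between AGM and any other group.

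Psmd11, a lid subunit that also contacts the core, lies at chr11:80428615-80473248 on the plus strand (GRCm38). AGM cells ran from 0 through 199.7 to 485 CPM, yolk sac cells from 182.6 through 276 to 893, E12.5 cells from 0 through 53.4 to 335 and E14.5 cells from 0 through 208.7 to 403 CPM. A read was found in 42 of 48, 16 of 16, 10 of 16 and 14 of 16 cells. The lowest yolk sac cell stood above the E12.5 median, and the ranges overlapped. Pooled levels were 189.1, 332, 108 and 220.1 CPM. Yolk sac stood 1.75-fold above AGM (1.70 to 1.81), E12.5 liver at 0.573-fold of AGM (0.546 to 0.600), and E14.5 liver 2.03-fold above E12.5 (1.93 to 2.14). The last value sits at the threshold: leaving out any of 15 of the 32 liver cells brought it under 2-fold, as low as 0.87 on the log2 scale without E12.5 cell 3, and it was 0.91 after thinning to 500000 reads per cell. Without E12.5 cell 15 the ratio of E12.5 liver to AGM went from -0.80 to -1.0005, at the 2-fold line. Without the 4 E14.5 wells with globin reads the E14.5 level was 227.4 CPM.

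Psmd13 and Psmd14 are further lid genes, of which Psmd14 encodes the deubiquitinase that frees the substrate from ubiquitin. Psmd13 measured 167.7 CPM in AGM and 261 in yolk sac, then 269 at E12.5 and 216.6 at E14.5, so it stood 1.61-fold above AGM at E12.5, where most regulatory genes stood lower. Psmd13 overlaps exons of Sirt3 on the opposite strand. Psmd14 cells ran from 0 through 289.5 to 766 CPM in AGM, from 137.4 through 424 to 878 in yolk sac, from 0 through 183.2 to 814 at E12.5 and from 43.7 through 340.5 to 1090 at E14.5. Its pooled levels of 307, 436, 280 and 369 CPM kept all 3 ratios within 2-fold, at 0.50, -0.13 and 0.40.

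**Figure D2:**
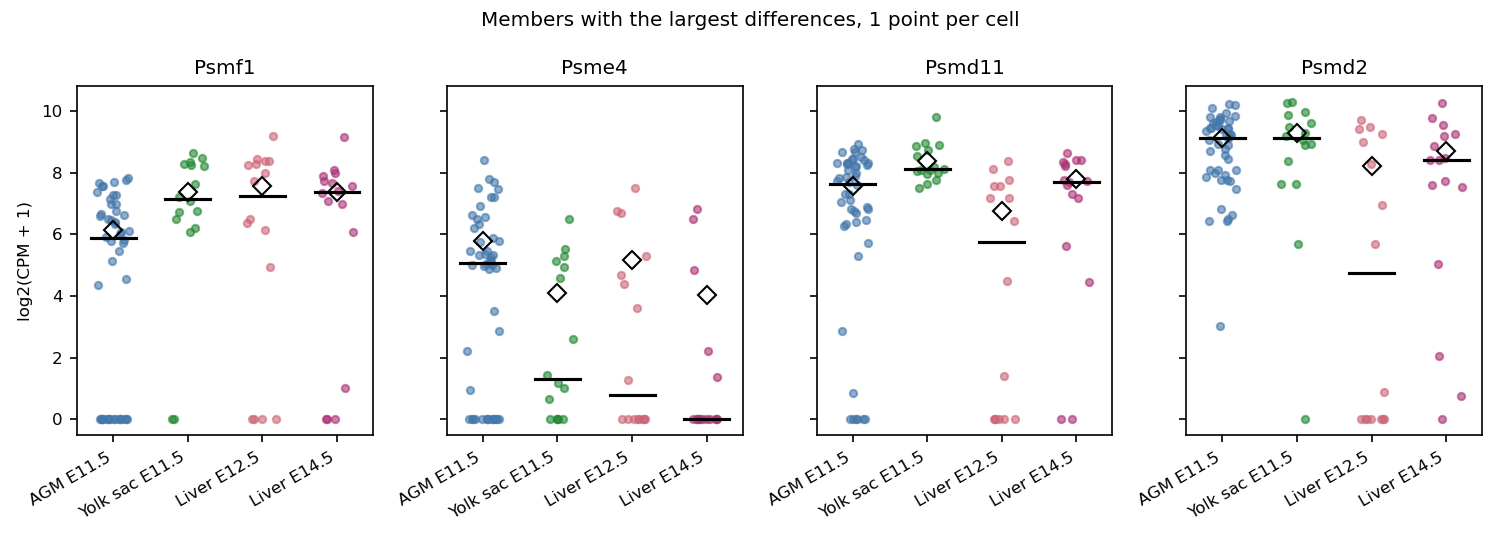
Level of 4 proteasome genes in each cell as log2(CPM + 1), by group; points are cells (48, 16, 16 and 16), bars are medians over cells and diamonds are pooled levels. Psmd11 and Psmd2 are at 0 in 6 and 7 of the 16 E12.5 cells and in 6 and 0 of the 48 AGM cells, Psmf1 has higher medians outside AGM, and 11 of 16 E14.5 cells are at 0 for Psme4.

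Promoter sequences were compared because core and regulatory genes had different median ratios. RefSeq promoters (GRCm38.p6, 250 bases before to 50 after the start) were found for 39 of the 47 genes, with 42 entries. Of 7 motifs searched on both strands, CCGGAAG, a binding motif of ETS-family factors, was in 16 of 42 entries (38.1%) and in 8.86% of all 32851 promoters. It was in 9 of 14 regulatory genes and 1 of 11 core genes with an entry. Sequences of 4 regulatory genes, each with CCGGAAG or its reverse complement CTTCCGG in capitals, show where it lies. Each stretch is 40 bases long, lies upstream of the start and is written 5′ to 3′ on the gene's own strand.
Psmd11: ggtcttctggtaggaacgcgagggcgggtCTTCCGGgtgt
Psmd2: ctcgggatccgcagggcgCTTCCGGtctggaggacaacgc
Psmd4: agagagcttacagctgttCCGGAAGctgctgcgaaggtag
Psmc6: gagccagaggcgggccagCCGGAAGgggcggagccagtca
They are chr11:80428575-80428614 (plus), chr16:20651608-20651647 (plus), chr3:95042718-95042757 (minus) and chr14:45329706-45329745 (plus). The motif starts 11 bases before the start site in Psmd11, 26 in Psmd2, 125 in Psmd4 and 100 in Psmc6. Among regulatory genes with an entry, the 9 with CCGGAAG had median ratios of 0.32, -0.23 and 0.12 in the 3 comparisons, and the 5 without it 0.19, -0.13 and 0.21. The ranges of both sets overlapped in each comparison. The 4 printed genes were all lower in E12.5 liver than in AGM, as was Psmc1. Psmc2, Psmd6, Psmd12 and Psmd13 also carry CCGGAAG and were higher in E12.5 liver than in AGM. The 4 printed genes therefore do not stand for all 9 in that comparison.

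The motif TGACNNNGC, the core of the antioxidant response element that Nrf-family factors bind, was in 6 of 42 entries (14.3%) and 12.4% of all promoters. Nfe2l1 of that family is known to raise proteasome genes when the proteasome is blocked. Of the catalytic genes, Psmb5 and Psmb6 carry a match, shown in capitals.
Psmb5: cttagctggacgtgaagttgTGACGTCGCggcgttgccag
Psmb6: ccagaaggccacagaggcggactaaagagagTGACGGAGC
They are chr14:54618023-54618062 (minus) and chr11:70525317-70525356 (plus), with the match starting 47 and 9 bases before the start site. The narrower form TGACTCAGC, with the middle bases fixed, was in 0 of 42 entries and 0.454% of all promoters, and TGAGTCA, which overlaps it, in 1 entry (Psmd9) and 5.20%. CCAAT was in 14 entries (33.3%, against 37.4% of all promoters), ATTGGCTG, which holds CCAAT on its other strand, in 4 (9.52% against 3.82%), and the nuclear respiratory factor 1 motif in 7 (16.7% against 4.60%). A match describes the letters of the window and was not linked to binding by any file used here.

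The 4 chaperones that help to build the core, which work as the pairs Psmg1 with Psmg2 and Psmg3 with Psmg4, summed to 561 CPM in AGM and 598 in yolk sac, then 660 at E12.5 and 498 at E14.5. With all cells, Psmg1 had the largest ratio downward of the chaperones between the livers, at 0.608-fold (0.581 to 0.635). It measured 267 CPM at E12.5 and 162.3 at E14.5. Its cells ran from 0 through 228.2 to 484 CPM at E12.5 and from 0 through 153.2 to 394 CPM at E14.5 and overlapped. Without the 4 E14.5 wells with globin reads the log2 ratio was -0.48 for Psmg1 and -0.60 for Psmg2. The largest ratio downward was then that of Psmg2. Psmg2 measured 141.5, 153.6, 188.8 and 129 CPM in the 4 groups and Psmg4 136.2, 96.4, 144.6 and 111 CPM. Psmg3 measured 98.6, 157.7, 59.1 and 95.02 CPM, with a read in 6 of 16 E12.5 cells, and without E12.5 cell 2, which held 37.2% of that group's reads, it passed 2-fold against AGM (-1.24) and between the livers (1.19).

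The 3 chaperones of 19S assembly summed to 406 CPM in AGM and 449 in yolk sac, then 398 at E12.5 and 459 at E14.5. Psmd5 measured 160.3, 233.4, 176.6 and 236 CPM. A read of Psmd5 was found in 8 of 16 E12.5 cells, and cell 16 held 34.7% of the E12.5 reads, so the ratio against AGM was 0.14 with that cell and -0.40 without it. Psmd9 lay between 104 and 134 CPM and Psmd10 between 92.5 and 118 CPM in the 4 groups.

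The inhibitor gene Psmf1 (chr2:151715812-151744186, minus strand) was the member called higher in both comparisons against AGM. PI31, its product, blocks the core in vitro and is known to take part in proteasome transport and assembly. AGM cells ran from 0 through 57.7 to 228.2 CPM, yolk sac cells from 0 through 141.5 to 397, E12.5 cells from 0 through 151.04 to 581 and E14.5 cells from 0 through 164.3 to 574 CPM. The medians outside AGM stood well above the AGM median, while all ranges began at 0. A read was found in 31 of 48 AGM cells and in 14, 12 and 13 of 16 cells of the other groups. Pooled levels of 69.8, 165.3, 189.1 and 166.7 CPM put yolk sac 2.37-fold (2.27 to 2.48) and E12.5 liver 2.71-fold (2.59 to 2.83) above AGM, and E14.5 at 0.881-fold of E12.5. Leaving out any 1 cell gave ratios from 1.12 to 1.33 in yolk sac and from 1.30 to 1.56 in E12.5 liver, all past 2-fold. In cells with at least 4000 genes the ratios were 1.14 and 1.21.

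Psme4 encodes PA200, a cap that opens the core without ATP and is known for its part in DNA repair and in spermatogenesis. It lies at chr11:30771726-30880361 on the plus strand. AGM cells ran from 0 through 32.9 to 342.5 CPM, yolk sac cells from 0 through 1.49 to 89.9, E12.5 cells from 0 through 0.722 to 179.2 and E14.5 cells from 0 through 0 to 113 CPM. A read was found in 34 of 48, 11 of 16, 8 of 16 and 5 of 16 cells. Pooled levels were 53.7, 15.96, 34.7 and 15.3 CPM, so AGM stood 3.36-fold above yolk sac and E12.5 liver 2.27-fold above E14.5. E12.5 liver against AGM was at -0.61, and at -1.08 without E12.5 cell 7. The yolk sac ratio of -1.69 lay between -1.96 and -1.57 with any 1 cell left out. The ratio between the livers of -1.13 rested on few cells: it was -0.66 without E12.5 cell 7, -0.83 without cell 11, -0.86 without cell 14, and -1.91 without E14.5 cell 10, which held 47.9% of that group's reads.

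The activators of the PA28 family open the core without ubiquitin. Psme1 and Psme2, the subunits of the cytoplasmic form, summed to 899 CPM in AGM and 980 in yolk sac, then 1281 at E12.5 and 1151 at E14.5. Psme1 cells ran from 0 through 481 to 1305 CPM in AGM, from 50.02 through 503 to 1464 in yolk sac, from 0 through 729 to 2017 at E12.5 and from 0.886 through 707 to 1271 at E14.5. Pooled, E12.5 liver stood 1.49-fold above AGM (1.46 to 1.52), with overlapping cells. Psme2 measured 385, 483, 516 and 473 CPM, and Psme2b, whose sequence is near that of Psme2, 27.4, 32.6, 39.5 and 34.4 CPM, so the split of reads between them is uncertain. Psme3, the nuclear form, measured 80.3, 109, 90.1 and 75.7 CPM, and E14.5 cell 13 held 29.2% of its reads.

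Outside the proteasome proper, Psmc3ip measured 67.4 CPM in AGM and 107 in yolk sac, then 9.24 at E12.5 and 101 at E14.5. A read was found in 33 of 48, 13 of 16, 5 of 16 and 12 of 16 cells, with medians of 44.3, 61.1, 0 and 97.0 CPM. AGM stood 7.29-fold above E12.5 liver and E14.5 liver 10.9-fold above E12.5 (9.33 to 12.8), and leaving out any 1 cell left these ratios between -3.13 and -2.60 and between 3.13 and 3.71. Psmc3ip shares exon sequence with Mlx on the opposite strand. Psma8 measured 4.51, 10.3, 1.57 and 10.2 CPM from 7, 4, 2 and 3 cells, and E12.5 cell 2 held 96.7% of that group's 30 reads. Its calls against AGM ended when 11 of 64 cells (yolk sac) or 2 of 64 cells (E12.5 liver) were left out in turn, to 0.30 without yolk sac cell 6 and to -0.49 without AGM cell 22. Its call between the livers (2.12) ended without the 4 E14.5 wells with globin reads, where it measured 4.01 CPM and the ratio was 0.96, and the ratio was 3.40 without E12.5 cell 2.

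Core and regulatory genes did not keep the same proportion in all groups. The core summed to 10775 CPM in AGM and 10978 in yolk sac, then 9630 at E12.5 and 8914 at E14.5, and the regulatory particle to 6875, 8101, 5782 and 6566 CPM. The core share of both was 61.0% in AGM (60.95 to 61.14), 57.5% in yolk sac (57.39 to 57.69), 62.5% in E12.5 liver (62.31 to 62.66) and 57.6% in E14.5 liver (57.41 to 57.75). Single cells ran from 50.8% through 60.6% to 74.7% in AGM, from 46.4% through 57.4% to 73.9% in yolk sac, from 54.7% through 63.0% to 71.8% at E12.5 and from 47.3% through 57.7% to 66.5% at E14.5. Cells overlapped widely between groups, and the pooled shares of AGM and E12.5 liver stood above the other 2. Without the 4 E14.5 wells with globin reads the E14.5 share was 58.3%, and without cell 8 the E12.5 share was 62.2%. Leaving out those 4 wells also raised the E14.5 sums, to 9469.5 CPM for the core and 6773 CPM for the regulatory particle.

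**Figure D3:**
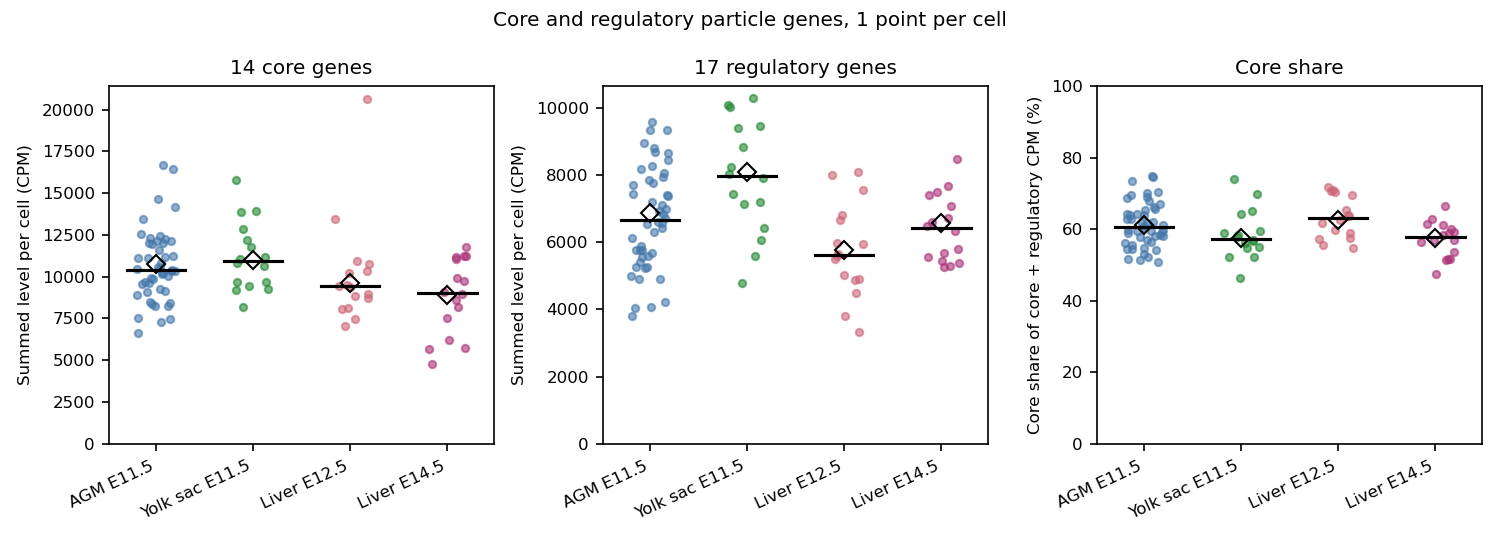
Summed CPM of the 14 core genes (left) and 17 regulatory genes (middle), and the core share of both (right), with 1 point per cell; bars are medians over cells and diamonds are pooled values. The groups overlap in all 3 panels, and the pooled core share is 61.0% in AGM and 57.5% in yolk sac, then 62.5% at E12.5 and 57.6% at E14.5.

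Core share ran against the number of genes found in a cell, least so in AGM. Across cells, Pearson's r of the share with the log2 number of genes was -0.11 over the 48 AGM cells, -0.67 over the 16 yolk sac cells, -0.63 over the 16 E12.5 cells and -0.42 over the 16 E14.5 cells, and Spearman's rho was -0.10, -0.63, -0.59 and -0.42. Without the 2 cells farthest from the median number of genes, r was -0.18, -0.66, -0.43 and -0.34. Cells differed in read depth, from 250235 to 1926882 reads, and these values are descriptions that were not tested. When cells with fewer than 4000 genes were left out (45, 13, 8 and 13 cells stayed) the shares were 60.8%, 56.6%, 60.9% and 57.3%, and after thinning to 500000 reads they were 61.2%, 58.7%, 62.6% and 58.0%.

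**Figure D4:**
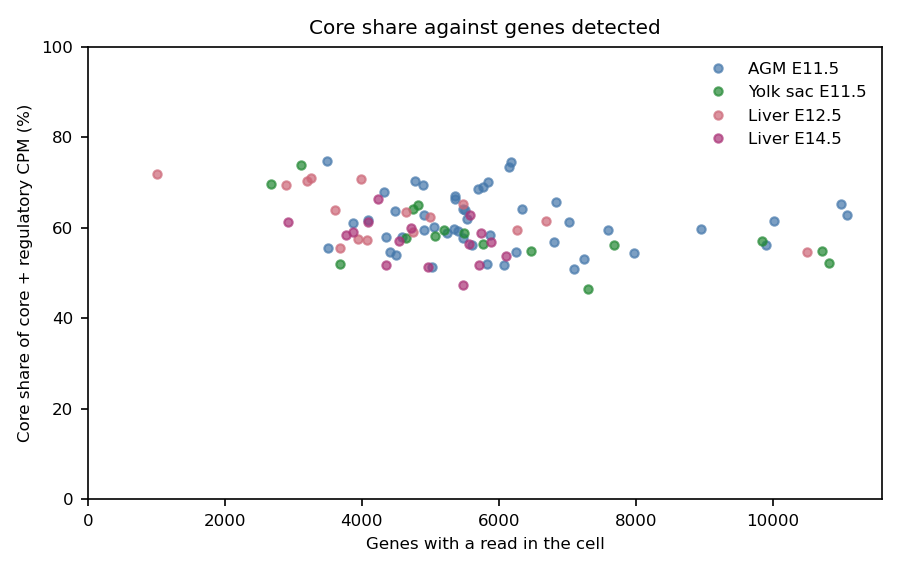
Core share of core plus regulatory CPM (vertical axis, percent) against the number of genes with a read (horizontal axis), with 1 point per cell, coloured by group. E12.5 cell 8 stands apart in gene number at 1011 genes, with a share of 71.8%. The cells next lowest in genes also lie above their group's pooled share. They are yolk sac cells 8 (69.7%) and 12 (73.9%), E12.5 cells 16 (69.5%), 10 (70.3%) and 9 (71.0%), E14.5 cell 14 (61.2%) and AGM cell 39 (74.7%, 3486 genes). From AGM cell 45 (3502 genes, 55.5%) upward, cells lie both high and low. At least 4000 genes were found in 8 of 16 E12.5 cells, against 13 of 16 in yolk sac and at E14.5.

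Most subunits had a read in most cells. Of the 31 subunits, a cell had a median of 31 with a read in AGM, yolk sac and E14.5 liver and 28.5 in E12.5 liver, and the lowest cells had 28, 27, 24 and 14. The full set of 31 had a read in 35 of the 48 cells from AGM, 11 of 16 from yolk sac, 9 of 16 at E14.5 and 4 of 16 at E12.5, the group with the fewest genes per cell. Between core and regulatory sums, Pearson's r across the 16 E14.5 cells was 0.73 (Spearman's rho 0.79, and r 0.64 without the 2 farthest cells). It was 0.49 in E12.5 liver, -0.03 in yolk sac and 0.24 in AGM (rho 0.53, 0.14 and 0.21, and r 0.39, 0.39 and 0.26 without the 2 farthest). All of these are descriptions of cells within a group that counts as 1 sample.

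Partner genes of the proteasome without a Psm name were read from a list of 14, of which 11 are in the table. None was called higher and 1 lower in yolk sac against AGM, 0 and 4 in E12.5 liver against AGM, and 3 and 0 in E14.5 against E12.5 liver, with medians of 0.12, -0.50 and 0.52. Over all genes 8.61%, 15.6% and 18.7% were called higher and 21%, 26% and 18.2% lower, and nothing is read from the counts in so short a list. Adrm1, a ubiquitin receptor of the base, measured 337 CPM in AGM and 337 in yolk sac, then 104 at E12.5 and 309 at E14.5. Ipo9, which carries proteasomes into the nucleus, measured 57.1, 74.9, 11.4 and 60.2 CPM, with a read in 4 of 16 E12.5 cells. With any 1 cell left out, its ratio lay between -2.95 and -2.06 in E12.5 liver against AGM and between 1.55 and 3.03 between the livers. Akirin2, which works with it, measured 40.5, 21.2, 15.96 and 23.3 CPM, and without yolk sac cell 11 its yolk sac ratio passed 2-fold (-1.24). Sem1, a small lid subunit, measured 562, 263, 438 and 347 CPM and was the gene called lower in yolk sac. Zfand2a, a stress-induced partner, had 1 read in E12.5 liver against 39.9 CPM at E14.5. With 1 CPM added the log2 ratio was 5.28 (4.32 without E14.5 cell 15), and the plain ratio of the levels was 760-fold with a counting interval from 136 to 30050, and 53.3% of its E14.5 reads came from 1 cell. AI314180, Usp14 and Txnl1 stayed within 2-fold in all 3 comparisons.

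Of 6 regulators of proteasome gene expression, 0, 1 and 1 were called higher and 2, 3 and 1 lower in the 3 comparisons, against the same shares of all genes. Most of these levels rested on few cells. Nfe2l1 measured 14.3 CPM in AGM and 9.73 in yolk sac, then 17.7 at E12.5 and 7.77 at E14.5. A single cell held 71.0% of its yolk sac reads, 94.1% of its E12.5 reads and 98.75% of its E14.5 reads, and its ratio between the livers of -1.10 was -4.08 when E14.5 cell 4 was left out and 2.02 when E12.5 cell 2 was. The ratio in E12.5 liver against AGM was 0.29, and -2.82 without E12.5 cell 2, so no direction can be read for Nfe2l1. Nfe2l2 measured 119, 96.7, 70.6 and 136 CPM, and without E12.5 cell 9 it passed 2-fold against AGM (-1.22) and between the livers (1.41). Ddi2, the protease that activates the Nfe2l1 protein, measured 9.61, 10.7, 1.57 and 2.33 CPM, with a read in 3 of 16 cells at E14.5 and 2 of 16 at E12.5, and without E12.5 cell 1 its ratios to AGM and between the livers were -2.93 and 1.26. Ngly1, which removes sugars from that protein, measured 22.4, 24.3, 60.0 and 73.8 CPM, and its call in E12.5 liver against AGM (1.38) ended without E12.5 cell 15 (0.64). Foxo4 was near the limit of counting with 3 reads in yolk sac (plain ratio to AGM 0.0654-fold, counting interval 0.0133 to 0.196) and 4 in E12.5 liver. Without AGM cell 27 its calls against AGM ended, at -0.87 and -0.78, and without E14.5 cell 1 so did its call between the livers (2.19, then -0.20).

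Of 14 genes for ubiquitin and its shuttles, 2, 0 and 0 were called higher and 1, 2 and 1 lower, under the same background. Ubqln4 stood higher in yolk sac (92.7 against 29.5 CPM in AGM), with a ratio between 1.07 and 1.92 with any 1 cell left out. Nploc4 did so too (50.3 against 19.5 CPM), with a ratio between 1.04 and 1.62. At E12.5 Nploc4 was at 8.98 CPM, where cell 2 held 80.1% of its reads, and its ratio of -1.04 lay between -2.78 and -0.75 with any 1 cell left out. Rad23b was at 9.29 CPM at E12.5 against 19.6 in AGM, where cell 10 held 48.6% of the E12.5 reads, and its ratio of -1.002 lay between -1.79 and -0.82. Ubqln2 was at 0.243 CPM in E14.5 liver against 12.3 at E12.5, where cell 15 held 70.9% of its reads, and its ratio of -3.42 was -1.95 without that cell. Its call in yolk sac against AGM (-1.21) ended without AGM cell 3 (-0.95). Ubqln1, Uba1 and Ufd1 stayed within 2-fold in all 3 comparisons.

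The immunoproteasome genes encode catalytic subunits that can replace the constitutive ones. Of pooled reads, Psmb8 made up 5.81% with Psmb5 in AGM and 15.6% in yolk sac, then 43.9% at E12.5 and 36.3% at E14.5. Psmb9 made up 1.90%, 2.58%, 9.99% and 14.2% with Psmb6 and Psmb10 40.7%, 51.8%, 70.2% and 53.7% with Psmb7. Single AGM cells ran from 0% to 23.7% (Psmb8), 13.8% (Psmb9) and 85.0% (Psmb10). E12.5 cells ran from 9.68% to 99.7%, from 0% to 37.3% and from 41.4% to 90.7%, so the ranges overlapped. Exons of Psmb8 overlap Gm20496 and those of Psmb9 overlap Tap1 on the opposite strand, the same limit as for Psmb7.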

How the data were processed

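The deposited file is a matrix of unnormalized read counts, with genes as rows and the 96 cells as columns, per the file headers. The submitters' processing notes name FastQC, Trimmomatic 0.36, STAR, HTSeq and mm10, with no role or order, and the annotation release, filters and strand setting are not given in the sources used here. Per the labels' protocols, cDNA was fragmented by a transposome, 12 cycles of PCR followed, and no molecular identifiers are named, so counts are reads and not molecules. Columns were matched to samples by name, and 0 columns were unmapped or identical.

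The table has 19949 rows, of which 113 repeat a symbol and were summed. For each group the reads of its cells were pooled and expressed as CPM, and 1 CPM was added before log2. All 15239 genes with at least 30 reads over all cells form the background. No cell was removed and no doublet caller was run, since 1 cell was sorted per well. Each group was 1 sample, so no test was made and a call means 2-fold or more. Poisson intervals on levels and Clopper-Pearson intervals on shares are exact at 95%.

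The members and lists were chosen with earlier results of these data known. Genes given in full were the catalytic genes, Psmd14, Psme1 to Psme4, Psmf1, the 3 largest ratios in each direction per comparison, the highest and lowest member per length, the 2 largest ratios in each direction of the 3 partner lists, and the immunoproteasome genes once. Psmc4, Psmc5, Psmd4, Psmd5 and Psmg3 were added after their values were seen. Psmg4 (yolk sac against AGM) and Psmg2 (between the livers) came under the rule of the 3 largest ratios. Some genes of the partner lists are counted but not reported by name here. Lengths and positions come from GENCODE vM21 (GRCm38), which matched all 47 members, and promoters from RefSeq. Alternatives were other scalings (edgeR 4.0.16 for TMM, in R 4.3.3), thinning, cell filters, 10 CPM added, no read minimum and leaving out cells. The filter at 4000 genes and the length over all exons were chosen after seeing the data. Values were computed with Python 3.11.15, pandas 2.3.3 and scipy 1.17.1, and the calculation was tested on simulated counts.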

Additional observations from a re-analysis of the deposited data

How the results depend on the processing

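No paired analysis was possible because the cell numbers name no animal or litter and the results come from no test. Each group is 1 sample, so differences between animals are not covered, and genes at few reads are limited by dropout. The medians and shares moved by more than their counting error in these settings, and the cause was not tested. When cells were averaged by their own CPM, the core medians were 0.053 (yolk sac over AGM) and -0.10 (E12.5 over AGM), the regulatory median between the livers was 0.066, 5 members were called in E12.5 over AGM, and the core shares were 61.3%, 58.6%, 63.7% and 57.8% in AGM, yolk sac, E12.5 and E14.5. After thinning to 500000 reads, which left out 1 AGM and 1 E12.5 cell, the E12.5 over AGM medians were -0.23 (core) and -0.29 (regulatory) with 5 calls, and the shares were 61.2% (AGM), 58.7% (yolk sac) and 58.0% (E14.5). The yolk sac medians were 0.10 and 0.28 (core and regulatory) under both TMM and median-of-ratios scaling. With 10 CPM added, 1 member was called between the livers in place of 4. With cells of at least 2000 genes, the E12.5 over AGM medians were -0.26 and -0.28 and the E12.5 share 62.2%. With AGM cells 1 to 16, the medians were 0.17 and 0.33 in yolk sac and 0.0035 and -0.14 at E12.5, and the AGM share was 60.4%. Without the 4 E14.5 wells with globin reads, the core median between the livers was -0.052 and the E14.5 share 58.3%. With cells of at least 4000 genes, the regulatory medians were 0.25, -0.18 and 0.028 and the shares 60.8%, 56.6%, 60.9% and 57.3%.

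Leaving out each cell in turn gave these ranges. In yolk sac over AGM the core median lay between -0.034 and 0.031, the regulatory median between 0.16 and 0.25, and 2 to 3 members were called. In E12.5 over AGM they lay between -0.26 and -0.12 and between -0.33 and -0.16, with 2 to 5 calls (5 without E12.5 cell 2). In E14.5 over E12.5 they lay between -0.19 and -0.069 and between 0.069 and 0.26, with 2 to 5 calls (2 without E12.5 cell 11). The core share lay between 60.7% and 61.4% in AGM, 56.8% and 58.3% in yolk sac, 62.0% and 63.0% at E12.5, and 56.9% and 58.1% at E14.5. For single genes, a value counted as moved when it changed by more than 1.5-fold or its call changed, a rule that does not use counting error. By that rule 17 values moved and 334 did not. In 13 the sign changed, none of them called, with sizes of at most 0.19 as reported and 0.25 under the alternative (Psmb5, Psmb7, Psmd14, Psme1 and Psme2). The share of cells with a read is limited by depth: with 10 CPM required, Psme4 was found in 37.5% of yolk sac cells in place of 68.8%.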
